A study of Drosophila melanogaster with 58 samples.

Results

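The dpr and DIP genes of Drosophila encode 2 interlocking families of neuronal cell-surface proteins, 21 dpr genes and 11 DIP genes in the table. They were taken by gene symbol (dpr followed by a number, or DIP followed by a Greek letter), which gave 32 members among 12453 genes. RNA was measured in 58 libraries from the fruit fly brain, each made from 1000 sorted GFP-positive cells that the labels call alpha-beta neurons or gamma neurons. Both are intrinsic neurons (Kenyon cells) of the mushroom body, the brain's centre for olfactory memory. The pupal groups are 18, 21, 24, 27 and 30 h old counted from pupa formation, with 5, 5, 6, 4 and 5 alpha-beta libraries and 5, 5, 5, 3 and 5 gamma libraries. Adults were sampled 3 to 5 days after leaving the pupal case, with 5 libraries of each cell type. All flies were kept at 25 °C with the sexes mixed, and the labels give neither a genotype nor the driver of GFP, so the breadth of the sorted population is not known from them. The pupal stages cover the first outgrowth of alpha-beta axons and the regrowth of gamma axons after pruning.

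Dpr and DIP proteins are immunoglobulin-superfamily proteins that sit on the outer face of the membrane and bind one another across cells. Each DIP binds a particular subset of Dprs in vitro, and matching pairs are known from the fly visual system, motor circuits and mushroom body to guide the choice of synaptic partners. In the mushroom body, Dpr12 on gamma axons and DIP-delta on dopaminergic neurons are known to act together in building part of the gamma lobe. A gene's level here is its RNA and says nothing direct of protein on the membrane.

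Total counts ran from 4403619 to 27242758 per library, so a gene without a count was below 0.11 to 0.681 CPM, the share that 3 counts make up. Levels are given as CPM, a gene's counts relative to the library total, scaled by TMM factors that adjust each library for its composition. Marker genes of Kenyon cells had counts in every group, the 6 genes of that list together reaching 477 to 7321 CPM. Genes listed as gamma-enriched (ab, Imp and chinmo) summed to similar pupal medians, 1395 CPM in alpha-beta and 1429 CPM in gamma libraries. In adults these medians were 799 and 1994 CPM. The mean of chinmo was higher in alpha-beta neurons at every stage (647 and 275 CPM in adults). Eip93F and Fas2, listed as alpha-beta-enriched in adults, summed to medians of 985 and 601 CPM there, with Fas2 at means of 364 and 477 CPM. Transcripts of other cells were also present: 7 genes of GABA, glutamate and aminergic neurons summed to 25.5 to 260 CPM in pupal libraries and to 566 to 3616 CPM in adults. The list of 7 glial genes summed to 219 to 1194 CPM in pupal libraries and 497 to 3473 CPM in adults, although the defining glial gene repo was at 0 in all 5 adult alpha-beta libraries. Most of the pupal sum came from nrv2, with group means of 425 to 626 CPM. Every other gene of the list had pupal group means of at most 112.1 CPM, and repo of at most 12.5 CPM. In adults the largest means were those of Gs2 (994 CPM in alpha-beta and 849 CPM in gamma neurons) and nrv2 (340 and 691 CPM). Alpha-beta 24 h replicate 6 stood apart, with a median rank correlation of 0.193 with its own group, against 0.29 or more in the other 57 libraries. In bulk samples, fewer cells carrying a transcript and less transcript per cell cannot be told apart. The labels do not say whether replicates came from separate cultures of flies, so p-values measure the spread between these libraries only.

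The dpr genes were broadly present in both cell types, whereas fewer of the DIP genes reached 10 CPM, above all in gamma neurons. Of the 21 dpr genes, 16 to 21 reached a mean of 10 CPM in each of the 12 groups, against 6 to 9 of the 11 DIP genes in alpha-beta groups and 3 to 5 in gamma groups. At a laxer mean of 1 CPM the counts were 20 to 21 dpr genes, and 9 to 10 DIP genes in alpha-beta and 6 to 10 in gamma groups. The median dpr gene had a group mean of 47.4 to 129.6 CPM, and the median DIP gene one of 12.2 to 45.6 CPM in alpha-beta groups and 3.56 to 7.77 CPM in gamma groups. There were 13 members with a count in all 58 libraries, 12 of them dpr genes, and the remaining one was DIP-delta. At the other end, DIP-iota had a count in 9 libraries, dpr15 in 30 and DIP-zeta in 36.

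**Figure D1:**
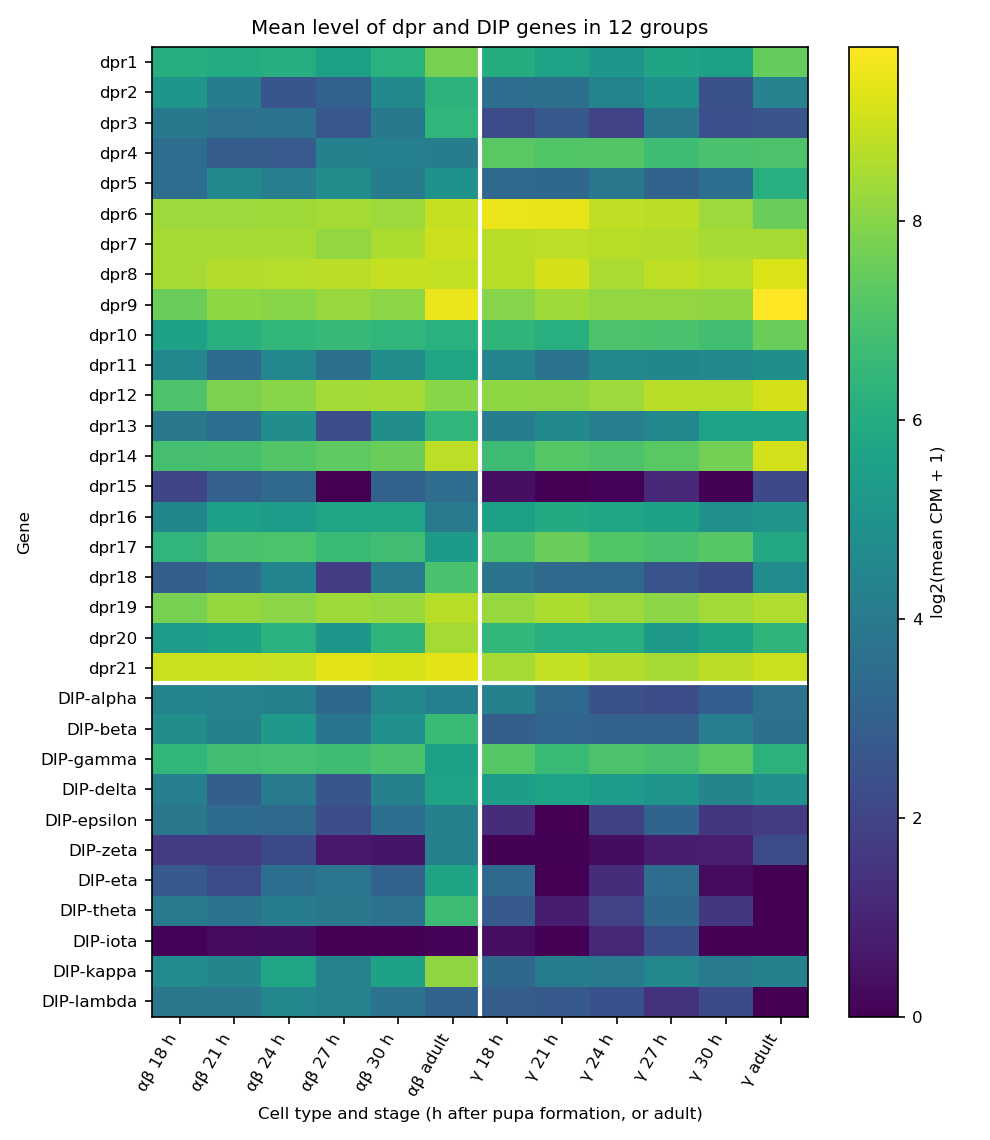
Mean level of each dpr and DIP gene (rows) in the 12 groups of alpha-beta (αβ) and gamma (γ) libraries (columns), coloured by log2 of the mean CPM + 1. Several dpr genes are bright across all groups, dpr4 is bright in gamma columns, and DIP-eta, DIP-theta, DIP-kappa, dpr18 and dpr20 are brightest in adult alpha-beta neurons.

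To compare levels between genes, CPM was divided by the summed length of a gene's annotated exons. On this scale, in CPM per kb, dpr21 and dpr7 ranked first and second in both cell types at 30 h and in adults. The level of dpr21 was 582 ± 140 CPM per kb (SD, n = 5) in alpha-beta neurons at 30 h, and that of dpr7 was 246 ± 54.7. Their annotated exons are short, 993 and 1515 bases. The annotation used for counting is not given, and if its exons were longer these values would be too high. dpr19 came next at 113 ± 30.0 CPM per kb, followed by dpr8 at 96.5 ± 17.9, and these 2 overlapped within their spread. The highest DIP at 30 h was DIP-gamma, at 40.1 ± 10.9 CPM per kb (alpha-beta) and 48.9 ± 23.1 CPM per kb (gamma). In adult alpha-beta neurons DIP-kappa reached 69.8 ± 34.6 CPM per kb.

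The member with the smallest adjusted p between the pupal cell types was dpr4, a Dpr that binds DIP-eta, DIP-theta and DIP-iota in vitro. In the pupa it ranged from 68.8 to 247 CPM over the 23 gamma libraries (median 121) and from 0 to 44.9 CPM over the 25 alpha-beta libraries (median 5.72). No gamma library overlapped an alpha-beta library, which in the pupa held for 8 of 10072 genes tested (0.0794%; 0.0298% with gamma higher). The difference, taken as the mean over the 5 stages, was 3.64 on the log2 scale (SE 0.456), a 12.5-fold higher level in gamma neurons, with an edgeR adjusted p of 5.94e-08. It was the one member called whichever of the 5 stages was left out of the contrast (log2 difference 3.41 to 3.92). In adults dpr4 had 152, 117, 58.5, 85.8 and 234 CPM in gamma libraries and 51.8, 4.38, 12, 2.33 and 11.5 CPM in alpha-beta libraries. The adult groups again did not overlap, but the difference of 2.98 (SE 0.963) had an edgeR adjusted p of 0.068. Without alpha-beta adult replicate 1, the library with 51.8 CPM, the adult difference was 4.09 and was called. An annotated antisense gene, asRNA:CR45056, covers 15.7% of the exon length of dpr4. Its own counts reached at most 45 in a library, or 3.38 CPM, so reads assigned to it were few beside those of dpr4 in gamma libraries.

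Over all members, 6 of 32 (18.8%) differed between the cell types in the pupa by the edgeR test, against 6.27% of all genes tested. Higher in gamma neurons were dpr4, dpr6 and DIP-delta (2.17% of all genes), and lower were dpr21, DIP-eta and DIP-epsilon (4.1% of all genes). The median log2 difference, gamma against alpha-beta, was 0.0507 over the 32 members, 0.173 over the dpr genes and -1.45 over the DIP genes, beside -0.0422 over all genes. Of the 11 DIP genes, 8 had a negative difference. Without alpha-beta 24 h replicate 6 the count was again 6. The 5 genes of the neuroblast marker list summed to 3.19 to 189 CPM in pupal alpha-beta libraries (median 53.2) and 0 to 34.4 CPM in pupal gamma libraries (median 4.22), where wor was at 0, and the part of such cells in these differences was not tested.

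dpr6, whose product binds DIP-alpha, was the second dpr gene higher in pupal gamma neurons, by 0.59 on the log2 scale (SE 0.175, edgeR adjusted p 0.0268). The pupal libraries overlapped widely, from 239 to 1010 CPM in gamma (median 494) and from 58.6 to 541 CPM in alpha-beta neurons (median 334). The gap was widest early. At 18 h the gamma libraries had 1010, 358, 680, 621 and 870 CPM and the alpha-beta libraries 457, 348, 332, 244 and 213 CPM, with 1 gamma library below the highest alpha-beta library. At 30 h they had 468, 260, 274, 239 and 364 CPM and 352, 364, 138, 423 and 317 CPM, respectively, and the groups overlapped. The call was lost when 18 h (adjusted p 0.243) or 21 h (adjusted p 0.21) was left out, and without gamma 27 h replicate 4.

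In adults the order of dpr6 was turned round. Adult gamma libraries had 366, 81.9, 70.6, 186 and 241 CPM, and adult alpha-beta libraries had 934, 509, 327, 266 and 364 CPM. The gamma level was lower by 1.34 on the log2 scale (log2 difference -1.34, SE 0.384, edgeR adjusted p 0.0332), with 1 gamma library above 3 of the alpha-beta libraries. This call was lost without alpha-beta adult replicate 1, without gamma adult replicate 2, 3 or 4, and in a fit of the adult groups alone. The change of the cell type difference from pupa to adult was -1.93 (SE 0.424, edgeR adjusted p 0.00489), in a comparison added after the values of dpr6 had been seen. The planned comparison of this kind, against 30 h alone, did not call dpr6 (-1.35, SE 0.536, edgeR adjusted p 0.227). The added comparison called 2 of 32 members (6.25%), dpr6 and DIP-theta, both lower, against 2.25% of all genes (0.824% lower). In it dpr6 remained called in each of the 58 fits that left out 1 library.

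DIP-delta and dpr12 form a binding pair of their own, with no other partner in the list used here. DIP-delta had a count in every library and was higher in pupal gamma neurons, with 2.58 to 105 CPM (median 28.5) against 0.0579 to 46.7 CPM in alpha-beta neurons (median 8.57). The log2 difference was 1.69 (SE 0.442, edgeR adjusted p 0.0103). At 21 h the gamma libraries had 105, 51.5, 62.9, 17.5 and 13.4 CPM, all above the alpha-beta libraries at 11, 6.13, 7.29, 5.68 and 3.93 CPM. At 30 h the groups overlapped, with means of 21 ± 23 and 18 ± 13 CPM (SD, n = 5 each). Leaving 21 h out of the contrast ended the call (adjusted p 0.0958). In adults the means were 29.8 ± 25.0 CPM in gamma and 48.7 ± 38.5 CPM in alpha-beta neurons, which did not differ beyond the spread between libraries (log2 difference -0.71, SE 0.941, edgeR adjusted p 0.835).

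dpr12 was abundant in both cell types. Its mean in alpha-beta neurons was 129 ± 57.9 CPM at 18 h, 225 ± 52.9 at 21 h, 262 ± 144 at 24 h, 338 ± 87.4 at 27 h, then 360 ± 127 at 30 h. At 18 h the 5 alpha-beta libraries had 184, 82.2, 167, 158 and 51.8 CPM, all below the 322, 325, 331, 578 and 245 CPM of 30 h. The linear trend over 12 h was 1.42 on the log2 scale (SE 0.356), with an edgeR adjusted p of 0.0715. It passed the threshold without alpha-beta 24 h replicate 6, the library that stood apart (adjusted p 0.0381). With all libraries kept it passed with DESeq2 (0.00258), limma-voom (0.00698), the alpha-beta pupal groups alone (0.0472) and the block for sheet sets (0.00644). In gamma neurons the trend was 0.72 (SE 0.358, edgeR adjusted p 0.537), from 272 ± 115 CPM at 18 h to 415 ± 117 CPM at 30 h (n = 5 each). The 2 trends did not differ by test (difference -0.70, SE 0.502, edgeR adjusted p 1). Adult gamma neurons had 560 ± 211 CPM and adult alpha-beta neurons 260 ± 160 CPM (n = 5 each; log2 difference 1.10, SE 0.392, edgeR adjusted p 0.0984).

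**Figure D2:**
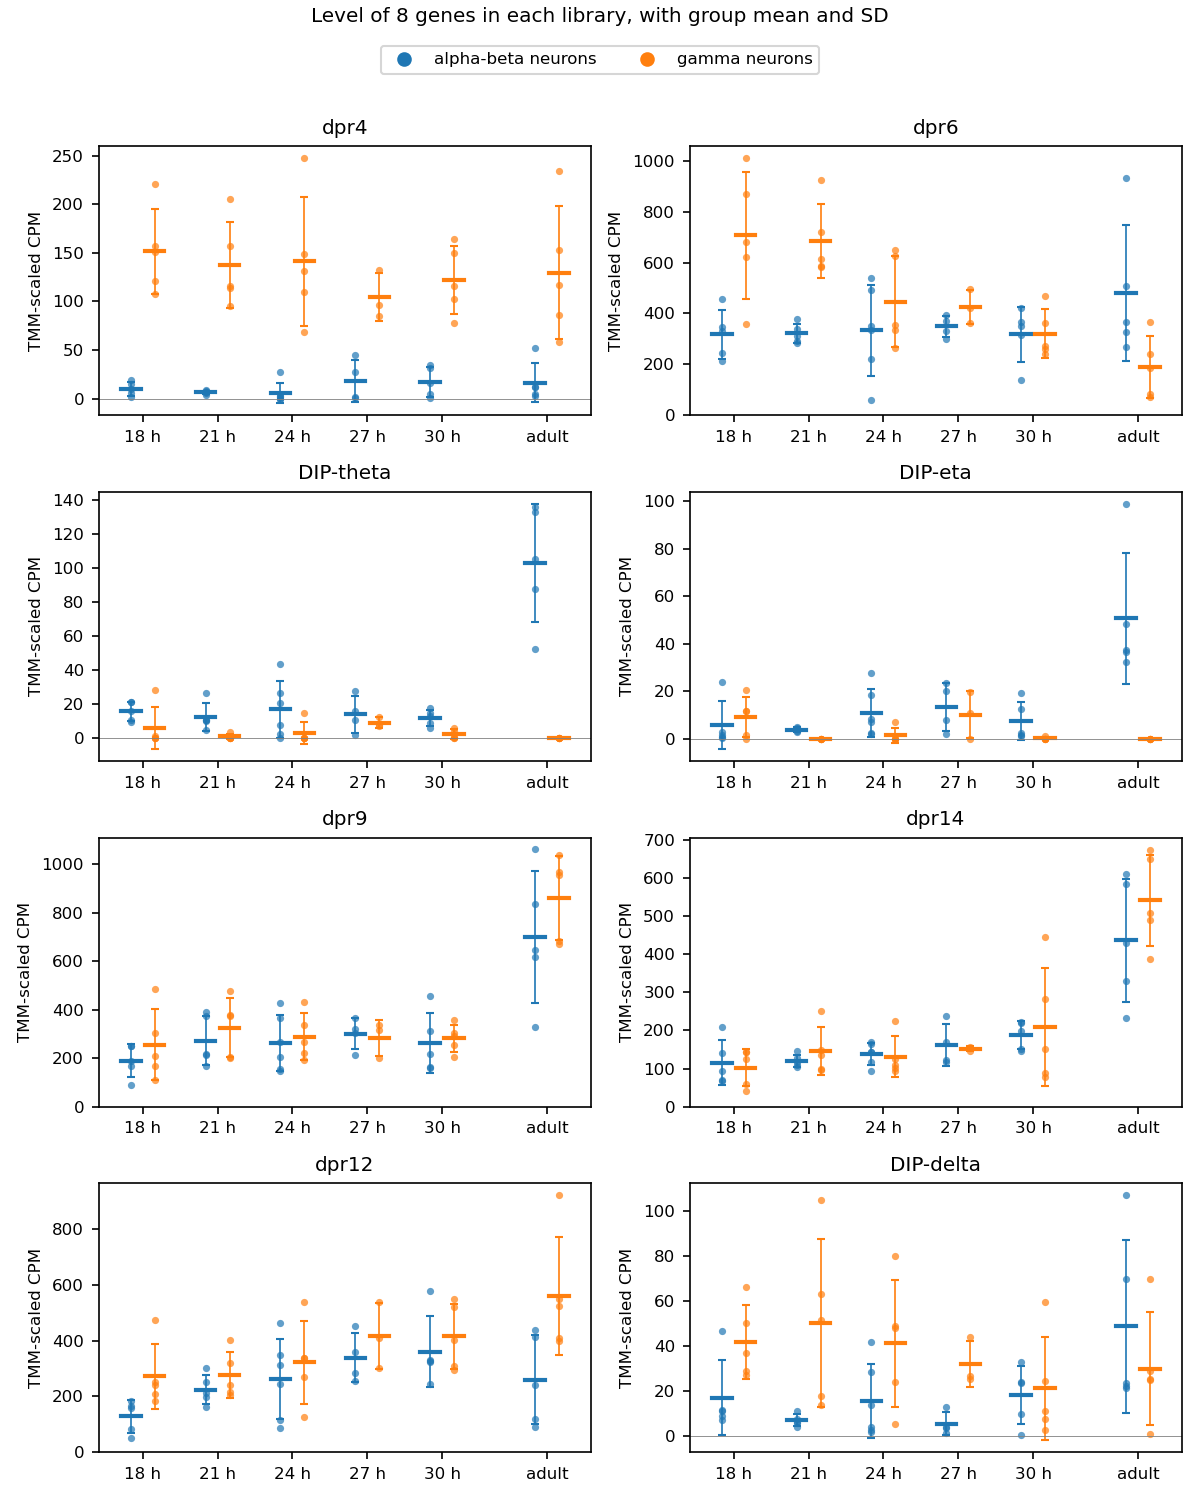
Level in TMM-scaled CPM of 8 members in each library (points) by stage, in alpha-beta (blue) and gamma neurons (orange), with the group mean (thick line) and SD (thin bars). dpr4 separates the cell types at every stage, the gamma level of dpr6 runs from 708 CPM at 18 h to 189 CPM in adults, and DIP-theta and DIP-eta stand high in adult alpha-beta libraries with no count in adult gamma libraries.

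Of the DIP genes with a negative pupal difference, 2 passed the test, DIP-eta and DIP-epsilon. DIP-eta had 0 to 20.4 CPM over 23 gamma libraries, 15 of them without a count, and 0.396 to 27.7 CPM over 25 alpha-beta libraries, all with a count. The edgeR adjusted p was 0.00934, but the sign was not the same at every stage. The gamma mean was 9.10 CPM at 18 h, where the alpha-beta mean was 5.86 CPM. At the 4 later stages the gamma means were 0, 1.42, 10.2 and 0.225 CPM, and the alpha-beta means were 3.79, 10.9, 13.4 and 7.37 CPM. All 5 gamma libraries at 21 h had no count, so the fitted fold depends on that group and is not given. Its call was lost when 21 h (adjusted p 0.3) or 30 h (adjusted p 0.0527) was left out. DIP-epsilon, which binds dpr13, dpr14, dpr19 and dpr20 in vitro, had counts in 10 of 23 gamma libraries (0 to 12.8 CPM) and in 21 of 25 alpha-beta libraries (0 to 34 CPM; edgeR adjusted p 0.0309). It too was at 0 in the 5 gamma libraries of 21 h, and its call was lost without 18, 21 or 30 h, and without any 1 of the 3 gamma libraries of 27 h or alpha-beta 27 h replicate 3. DIP-theta, with no count in 13 of 23 gamma and 1 of 25 alpha-beta libraries, had an edgeR adjusted p of 0.109, and DIP-lambda, with no count in 10 and 0 of them, one of 0.251. DIP-theta was past the threshold with DESeq2 (adjusted p 0.0256), and both genes were with limma-voom (2.53e-05 and 0.00015). All 3 gamma libraries of 27 h had counts of DIP-theta (mean 8.83 CPM) and of DIP-epsilon (mean 7.76 CPM).

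The remaining pupal call was dpr21, a partner of DIP-beta, which was lower in gamma neurons by a small amount (log2 difference -0.46, SE 0.139, edgeR adjusted p 0.0333). Its libraries ranged from 234 to 571 CPM in gamma (median 405) and from 121 to 822 CPM in alpha-beta neurons (median 522). The 2 sets overlapped over most of their range, and leaving out any stage other than 21 h ended the call, as did leaving out any of 9 of the 48 pupal libraries.

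In adults 4 of the 11 DIP genes had no count in any gamma library, and 3 of them, all but the barely detected DIP-iota, passed the test. Members called were 4 of 32 (12.5%), against 3.6% of all genes, and all 4 were lower in gamma neurons: DIP-eta, DIP-theta, DIP-lambda and dpr6 (1.49% of all genes were lower). The median log2 difference was -2.98 over the 11 DIP genes and -0.28 over the 21 dpr genes, beside 0 over all genes, and 10 of the 11 DIP genes had a negative difference. The DIP median was the value of DIP-iota, which is also among these 10 and had a mean of 0.0601 CPM in adult alpha-beta libraries. The values next to it were -3.09 (DIP-beta) and -2.975 (DIP-epsilon). The share of all genes with a negative difference is not given.

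DIP-theta had 52.5, 136, 133, 106 and 88.0 CPM in the 5 adult alpha-beta libraries and no count in any of the 5 adult gamma libraries. Its alpha-beta mean was 348-fold above a floor of 3 counts per gamma library (edgeR adjusted p 0.00269 for the cell type difference). That floor covers counting error only, and a gene can be at 0 in 1 library of a group. DIP-gamma, for instance, had 68.0, 15.8, 80.4, 0 and 63.7 CPM in adult alpha-beta libraries. DIP-eta had 37.3, 32.4, 98.8, 36.5 and 48.2 CPM in adult alpha-beta libraries and again no count in adult gamma libraries. Its alpha-beta mean was 171-fold above the floor (edgeR adjusted p 0.00263). Both calls held in each of the 10 fits that left out 1 adult library. DIP-lambda had 18.9, 0, 11.2, 0 and 8.31 CPM in adult alpha-beta libraries and no count in adult gamma libraries. Its alpha-beta mean was 25.9-fold above the floor (edgeR adjusted p 0.0269). With 2 alpha-beta libraries also at 0 its groups overlapped, and leaving out gamma adult replicate 3, 4 or 5 ended the call. An annotated non-coding RNA on the same strand covers 12.6% of the exon length of DIP-theta. No counts are given under its name, so its share of the DIP-theta reads could not be checked.

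**Figure D3:**
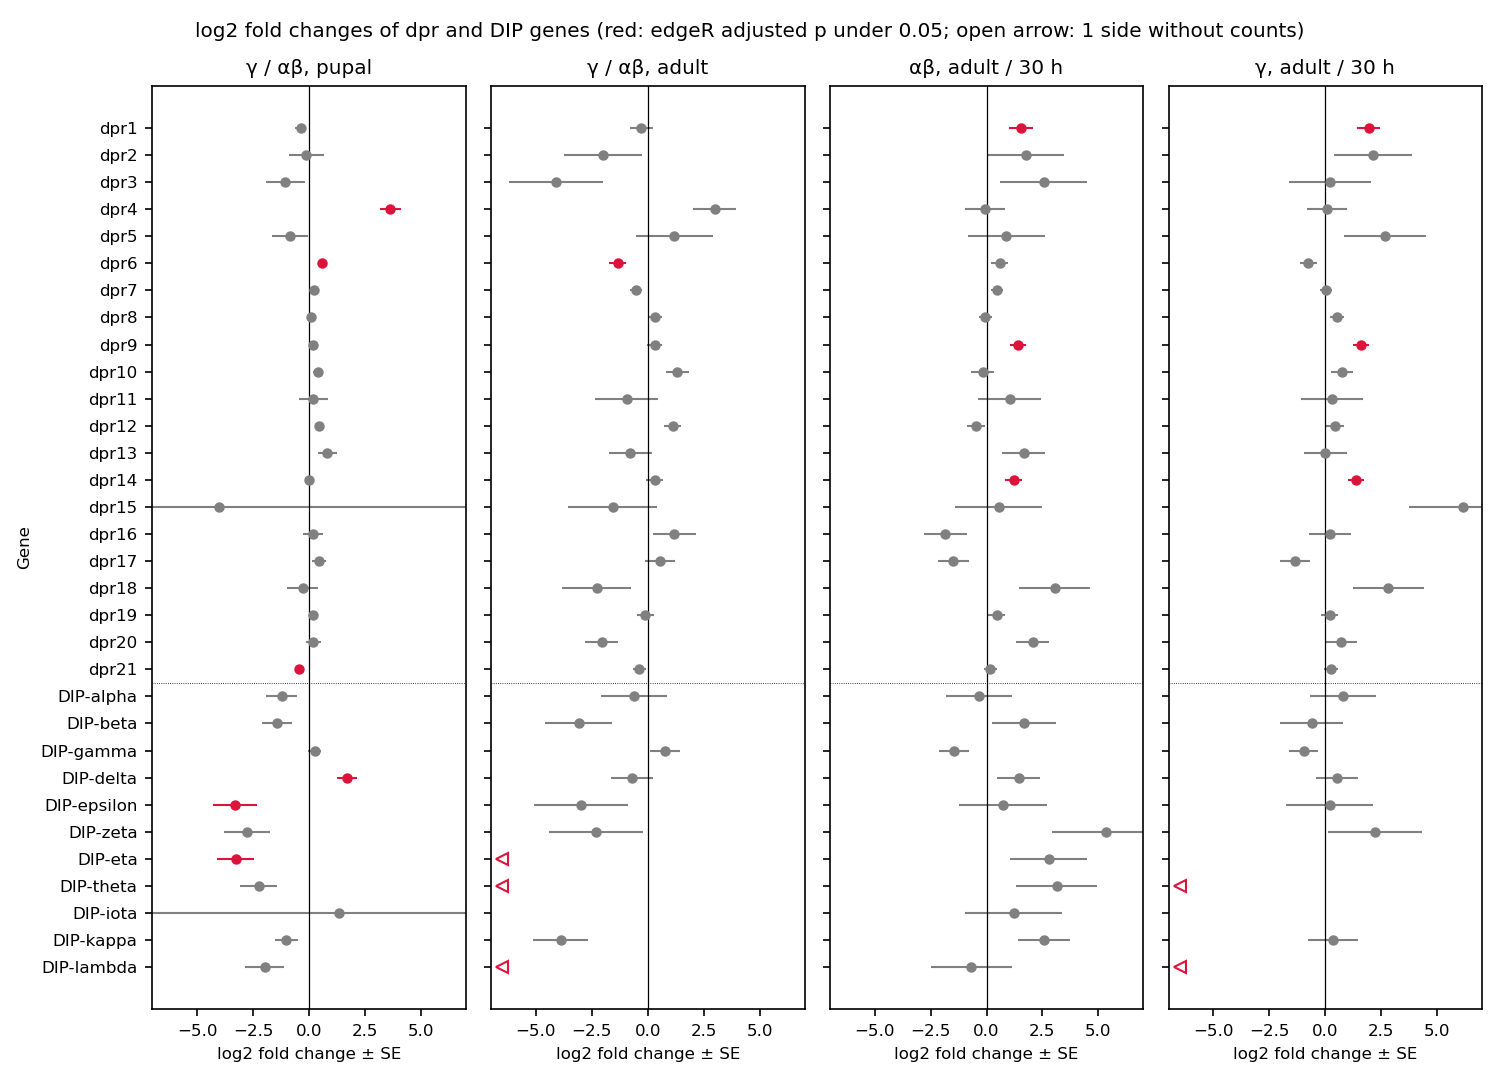
log2 fold change with its SE for each member in 4 comparisons: gamma against alpha-beta in the pupa and in adults, and adult against 30 h in each cell type. Members past an edgeR adjusted p of 0.05 are red, open arrows mark members for which all libraries on 1 side had no count, and a member with both sides under the floor is not drawn. Bars of rarely detected members such as dpr15 run beyond the axis.

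A further 4 members had adult libraries that did not overlap between the cell types without passing the test, where 2.04% of all genes had none overlapping (0.923% higher and 1.11% lower in gamma neurons). One was dpr4, described above. DIP-kappa had 168, 204, 372, 474 and 172 CPM in adult alpha-beta libraries and 17.2, 4.14, 0, 13.1 and 59.2 CPM in adult gamma libraries (log2 difference -3.90, SE 1.24, edgeR adjusted p 0.0627). dpr20 had 204, 397, 325, 595 and 199.9 CPM in alpha-beta and 35.0, 2.99, 128, 115 and 130 CPM in gamma libraries (log2 difference -2.07, SE 0.747, edgeR adjusted p 0.104). DIP-beta had 134, 39.7, 140, 52.6 and 106 CPM in alpha-beta and 33.5, 3.66, 12.9, 5.41 and 0 CPM in gamma libraries (log2 difference -3.09, SE 1.5, edgeR adjusted p 0.235). In each of these 3 genes every adult alpha-beta library lay above every adult gamma library. DIP-kappa was called without gamma adult replicate 5, and with DESeq2 dpr4, DIP-kappa and dpr20 were called.

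From 30 h to adult, dpr9, dpr14 and dpr1 were higher in both cell types. In alpha-beta neurons 3 of 32 members were called (9.38%), below the 12.5% of all genes, and all 3 were higher in adults (4.69% of all genes). In gamma neurons 5 of 32 were called (15.6%, against 10.2% of all genes), with the same 3 dpr genes higher (5.06% of all genes) and DIP-theta and DIP-lambda lower (5.18% of all genes). These comparisons do not share libraries between the cell types. The median log2 change over the dpr genes was 0.59 (alpha-beta) and 0.43 (gamma), beside -0.16 and -0.07 over all genes. Adult libraries also held more transcript of other neurons, such as Gad1, the enzyme that makes GABA, which had a mean of 9.23 CPM at 30 h and 1036 CPM in adult alpha-beta libraries, and 35.5 and 1179 CPM in gamma libraries. Its part in the adult levels of these genes was not tested.

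dpr9, whose product binds DIP-beta, had 159, 165, 313, 456 and 219 CPM at 30 h and 646, 620, 1063, 836 and 330 CPM in adults in alpha-beta neurons, where 1 adult library lay within the range of 30 h (log2 change 1.41, SE 0.352, edgeR adjusted p 0.00342). In gamma neurons it had 305, 207, 290, 356 and 255 CPM at 30 h and 671, 682, 967, 1038 and 958 CPM in adults, with no overlap (log2 change 1.61, SE 0.354, edgeR adjusted p 0.00108). Both calls held in each of the 10 fits without 1 library. Groups without overlap in these comparisons made up 11.3% of all genes in alpha-beta neurons (4.78% higher and 6.51% lower in adults), and 8.04% in gamma neurons (3.6% higher in adults).

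dpr14, a partner of DIP-epsilon and DIP-zeta, had 198, 220, 145, 150 and 222 CPM at 30 h and 583, 232, 330, 429 and 610 CPM in adult alpha-beta neurons, with no overlap (log2 change 1.22, SE 0.374, edgeR adjusted p 0.0211). In gamma neurons it had 283, 79.1, 89.1, 151 and 445 CPM at 30 h and 509, 650, 388, 674 and 489 CPM in adults, with 1 library at 30 h above 1 adult library (log2 change 1.37, SE 0.375, edgeR adjusted p 0.0107). The gamma call held in all 10 fits without 1 library, and the alpha-beta call was lost without 30 h replicate 3 or 4 or adult replicate 1 or 5.

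dpr1, the founding member of the family, named for a defect in the proboscis extension response to salt, had 71.0, 33.3, 77.9, 37.5 and 148 CPM at 30 h and 233, 209, 252, 131 and 240.3 CPM in adult alpha-beta neurons (log2 change 1.54, SE 0.522, edgeR adjusted p 0.0414). In gamma neurons it had 59.7, 53.2, 26.3, 34 and 56.2 CPM at 30 h and 213, 44.1, 42.7, 90.0 and 486 CPM in adults (log2 change 1.93, SE 0.529, edgeR adjusted p 0.0107). Both pairs of groups overlapped. The gamma change was 1.06 and was not called without adult replicate 5, the library with 486 CPM, and the alpha-beta call was lost in 8 of 10 fits without 1 library, the exceptions being those without 30 h replicate 5 or adult replicate 4.

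In gamma neurons DIP-theta had 0, 5.83, 0.119, 4.13 and 0 CPM at 30 h and no count in adults. Its mean at 30 h was 6.8-fold above the floor of the adult libraries (edgeR adjusted p 0.0272). DIP-lambda had 5.63, 0, 11, 0 and 1.18 CPM at 30 h and no count in adults, with a mean at 30 h 12-fold above that floor (edgeR adjusted p 0.0207). Some libraries at 30 h were also at 0, so in both genes the groups overlapped, and the call of DIP-theta was lost in 4 of 10 fits without 1 library (gamma 30 h replicate 2, or gamma adult replicate 1, 3 or 4). In alpha-beta neurons the adult libraries of DIP-eta, DIP-theta, DIP-kappa and dpr20 all lay above those of 30 h and those of DIP-gamma all below, yet none passed the edgeR test over all 12 groups. DIP-theta went from 11.7 ± 4.66 to 103 ± 34.7 CPM (log2 change 3.13, SE 1.81, edgeR adjusted p 0.244), and dpr20 from 82.4 ± 49.1 to 344 ± 163 CPM (log2 change 2.06, SE 0.746, edgeR adjusted p 0.0575). DIP-eta went from 7.37 ± 8.08 to 50.6 ± 27.5 CPM (log2 change 2.78, edgeR adjusted p 0.289), and DIP-kappa from 46.5 ± 44 to 278 ± 138 CPM (log2 change 2.58, edgeR adjusted p 0.123). DIP-gamma went from 124 ± 33.8 to 45.6 ± 35.4 CPM (log2 change -1.45, edgeR adjusted p 0.133; n = 5 in each group of these genes). Of these, dpr20 was past the threshold with DESeq2 (adjusted p 0.0127), limma-voom (0.00204), a fit of the 2 groups alone (0.0156) and the block for sheet sets (0.0259). DIP-kappa was called in the first 3 of these fits, DIP-theta with limma-voom and in the 2 groups alone, and DIP-eta with limma-voom.

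An interaction term asked whether adult and 30 h libraries differed to a different extent in gamma and alpha-beta neurons. No member passed by edgeR without a block (0 of 32, against 0.665% of all genes). An unadjusted p under 0.05, for which no share of all genes is given, was found for 4: DIP-theta, DIP-eta, DIP-lambda and dpr6, all with the lower change in gamma neurons. DIP-theta came nearest, with an adjusted p of 0.0618, and that of dpr6 was 0.227. Set against the mean of all pupal stages in place of 30 h, in the added comparison, DIP-theta was called (edgeR adjusted p 0.0151), except without gamma 21 h replicate 3 or gamma 24 h replicate 3. By DESeq2, DIP-theta, DIP-eta and DIP-lambda were called in the interaction, and DIP-theta was also called by edgeR with a replicate block (adjusted p 0.0363). These calls are given without the share of all genes. DIP-theta, DIP-eta and DIP-lambda had no count in adult gamma libraries, so the size of their change there could not be measured. For DIP-eta the gamma mean at 30 h was 0.225 CPM, already below the floor of 0.296 CPM of the adult gamma libraries.

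Within the pupa, no member had a linear trend from 18 to 30 h past the edgeR threshold in either cell type (0 of 32 in each; alpha-beta: 0.208% of all genes, gamma: 0.109%). At an unadjusted p under 0.05 there were 2 members in alpha-beta neurons, dpr12 and dpr14, and 5 in gamma neurons, dpr6, dpr12, dpr14, DIP-epsilon and DIP-zeta. Counts at an unadjusted p are given without the share of all genes and are not read as a result about the members. The gamma mean of dpr6 was 708 ± 249 CPM at 18 h, 686 ± 145 at 21 h, 446 ± 179 at 24 h, 425 ± 67.0 at 27 h, then 321 ± 94.9 at 30 h, a trend of -1.19 over 12 h (SE 0.354, edgeR adjusted p 0.186). It was past the threshold with DESeq2 (adjusted p 0.013), limma-voom (adjusted p 0.00443) and in an edgeR fit of the 5 gamma pupal groups alone (adjusted p 0.043). DESeq2 called 2 members in alpha-beta neurons, dpr12 and dpr15, and 4 in gamma neurons, dpr6, dpr15, DIP-eta and DIP-epsilon. Of these, dpr15 had no count in the alpha-beta libraries of 27 h, and dpr15, DIP-eta and DIP-epsilon had none in the gamma libraries of 21 h. The gamma trend of DIP-eta was 5.53 by DESeq2 and -0.24 by edgeR, so its sign was not settled. Counts of members called by DESeq2 are given without the share of all genes. No member's trend differed between the cell types by edgeR (0 of 32, against 0% of all genes; 3 at an unadjusted p under 0.05), whereas DESeq2 called 2, dpr15 and DIP-epsilon, both with few counts.

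Binding partners were set side by side from a list of 33 pairs in 6 partner groups known from binding in vitro. The list has no pair with dpr7, dpr18, DIP-kappa or DIP-lambda, so the pair counts leave these members out. A pair was counted in a library where both genes had at least 10 CPM. The median library held 19 such pairs in adult alpha-beta neurons (16 to 28 in 5 libraries) and 6 in adult gamma neurons (4 to 10 in 5 libraries), so the adult groups did not overlap. In the pupa the median was 11 in alpha-beta neurons (5 to 22 in 25 libraries) and 7 in gamma neurons (3 to 13 in 23 libraries), with wide overlap. Pairs that share a DIP enter and leave this count together, so it is a description of which DIP is present as much as of pairs. It also depends on the threshold: at 30 CPM the pupal medians were 2 and 2, and the adult ones 11 in alpha-beta and 2 in gamma neurons.

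**Figure D4:**
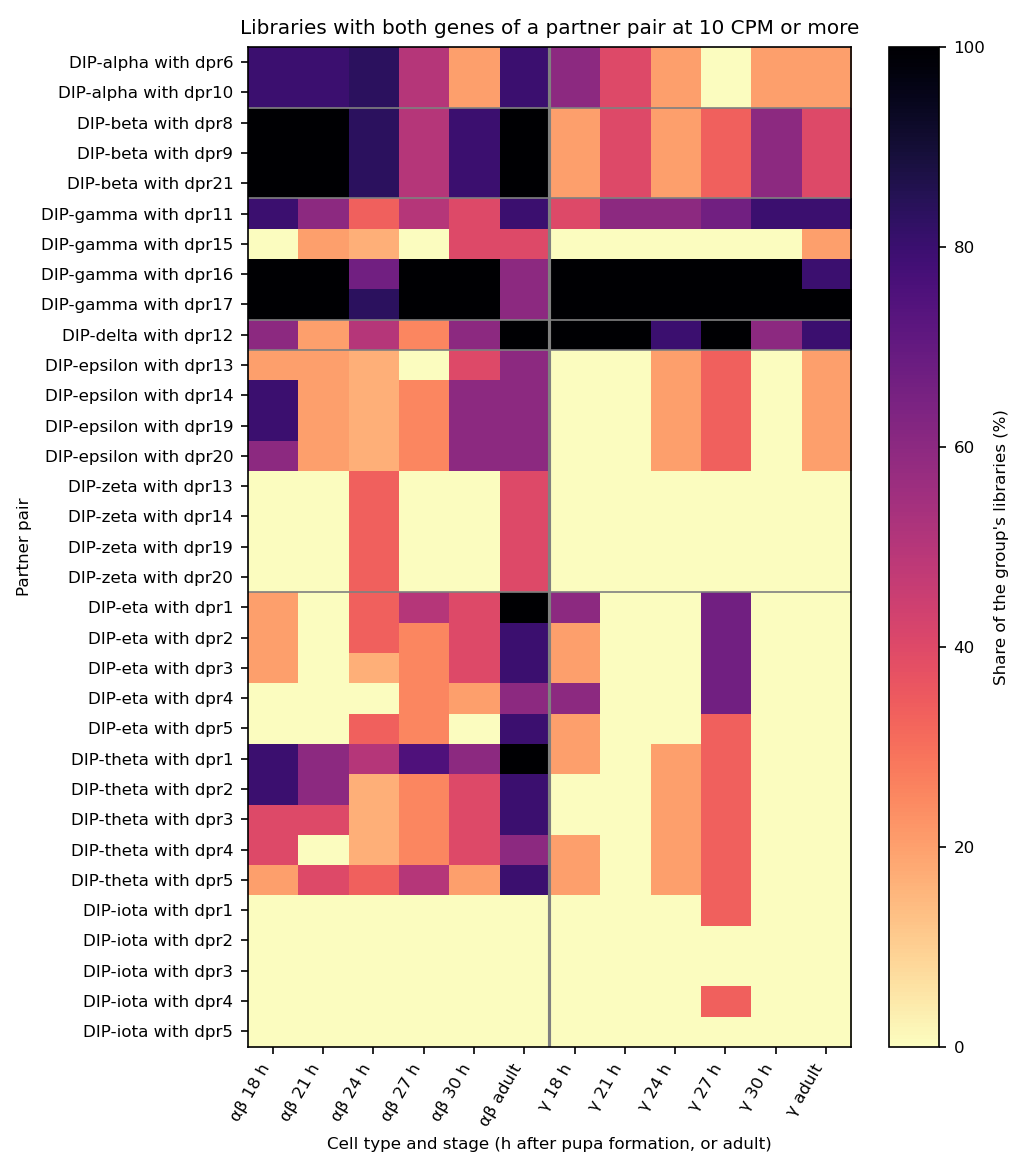
Share of each group's libraries, in percent, in which both genes of a DIP and dpr partner pair had at least 10 CPM, for 33 pairs (rows, with lines between partner groups) and 12 groups (columns). Pairs of DIP-gamma with dpr16 and dpr17 are dark throughout the pupa in both cell types, and pairs of DIP-beta, DIP-eta and DIP-theta are darker in adult alpha-beta than in adult gamma neurons.

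The pair most often present was DIP-gamma with dpr17, in 23 of 23 pupal gamma libraries and 24 of 25 pupal alpha-beta libraries, and DIP-gamma with dpr16 was in 23 of 23 and 23 of 25. In adults DIP-gamma with dpr17 was in 5 of 5 gamma and 3 of 5 alpha-beta libraries. DIP-delta with dpr12 was in 20 of 23 pupal gamma, 11 of 25 pupal alpha-beta, 4 of 5 adult gamma and 5 of 5 adult alpha-beta libraries. dpr12 was at 51.8 CPM or more in all 58 libraries, so DIP-delta decided where that pair was counted.

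DIP-beta with dpr8, dpr9 or dpr21 was in 21 of 25 pupal alpha-beta, 8 of 23 pupal gamma, 5 of 5 adult alpha-beta and 2 of 5 adult gamma libraries, the same numbers for each of the 3 partners. DIP-alpha with dpr6 was in 16 of 25, 7 of 23, 4 of 5 and 1 of 5, in the same order. DIP-theta with dpr1 was in 16 of 25, 3 of 23, 5 of 5 and 0 of 5, and DIP-eta with dpr1 in 7 of 25, 5 of 23, 5 of 5 and 0 of 5. For dpr4, all 3 listed partners (DIP-eta, DIP-theta and DIP-iota) had no count in adult gamma libraries. In the pupa dpr4 reached 10 CPM together with DIP-eta in 5 of 23 gamma libraries, with DIP-theta in 3 and with DIP-iota in 1. DIP-epsilon pairs were in at most 10 of 25 pupal alpha-beta libraries and DIP-zeta pairs in 2 of 25.

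The other members were called by edgeR in none of the 8 comparisons. Among them, dpr8, dpr19 and dpr7 had group means of 353 to 584, 212 to 414 and 285 to 519 CPM over the 12 groups. dpr10, the second partner of DIP-alpha, ranged from 47.4 to 187 CPM, with its highest mean in adult gamma neurons. Of the DIP-gamma partners, dpr17 ranged from 38.9 to 186 CPM, dpr16 from 14.6 to 60.8, dpr11 from 9.61 to 53.8 and dpr15 from 0 to 10.3. dpr13 ranged from 3.98 to 84.7 CPM, dpr2 from 4.42 to 77.4, dpr3 from 2.93 to 84.1 and dpr5 from 7.72 to 68.7. dpr18, which has no partner in the list used here, had 123 ± 100.2 CPM in adult alpha-beta neurons (n = 5) and means of at most 25.5 CPM elsewhere. Among the DIP genes, DIP-alpha ranged from 4.01 to 22.2 CPM, DIP-gamma from 45.6 to 152, DIP-zeta from 0.0313 to 18.2 and DIP-iota from 0 to 4.02.

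Some members varied with the order of the library sheet. The library names carry running numbers, and sets of 12 consecutive numbers hold about 1 library of each group. For dpr9 all 12 libraries of the fourth set and 11 of 12 of the third lay above their group means on the log2(CPM + 1) scale, against 0 of 11 in the second set. The mean log2 deviation of dpr9 was 0.47, 0.40 and -0.40 in these sets, and that of dpr12 was 0.40, 0.51 and -0.22. With the set as a term in the fit, the adult changes of dpr9 were 1.45 (alpha-beta) and 1.61 (gamma), and dpr12 was higher in gamma neurons in the pupa by 0.51 (edgeR adjusted p 0.0201), where it had been 0.44 (adjusted p 0.176) without that term. In adults dpr12 (log2 difference 1.22), dpr10 (1.47), dpr4 (3.23), dpr20 (-2.25) and DIP-kappa (-4.03) were also called with the set as a term. In the pupa the call of DIP-epsilon was lost with that term (adjusted p 0.062). What the sheet numbers stand for is not stated in the labels.

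A list of 16 other immunoglobulin-superfamily or adhesion genes, among them Fasciclins, Neurotactin and relatives of Lachesin, was tested in the same fits. In the pupa none was higher in gamma neurons and 2 were lower, klingon (klg, log2 difference -0.79, SE 0.201, edgeR adjusted p 0.00794) and teiresias (tei, log2 difference -1.31, SE 0.295, edgeR adjusted p 0.00276). In adults, 1 of the 16 differed between the cell types, wrapper, which was higher in gamma libraries (edgeR adjusted p 0.049). The gene wrapper is also on the list of 7 glial genes. It ranged from 0 to 47.2 CPM in adult gamma libraries and from 0 to 0.365 CPM in adult alpha-beta libraries. The part of glial cells in this difference was not tested. None of the 16 was called in the interaction or the trends. From 30 h to adult, 4 of the 16 were lower in alpha-beta neurons (Lac, CG34353, Fas3 and Nrt) and 4 were lower in gamma neurons (Lac, Ama, Fas3 and Nrt). In gamma neurons klg and nrm were higher in adults, by 2.95 (SE 0.460) and 1.72 (SE 0.397) on the log2 scale. Fas3, a homophilic adhesion protein, had a log2 change of -3.32 (SE 0.531) in alpha-beta and -4.30 (SE 0.555) in gamma neurons.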

How the data were processed

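The authors deposited 1 table for the whole series, and its 58 columns of raw counts per gene were the only values used. STAR is named in the submitters' processing notes, without a version. The genome build, annotation, counting program and strand setting are not given in the sources used here, so no coordinates are printed. No value column was without a sample (0). Groups are the cell type and stage given in the labels.

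The test was edgeR's two-sided quasi-likelihood F-test (edgeR 4.0.16, R 4.3.3). All 12 groups entered 1 fit with TMM scaling. filterByExpr (minimum count 10, minimum total 15) kept 10072 genes, among them all 32 members. Called means an adjusted p under 0.05, by Benjamini and Hochberg over these genes. There were 8 planned comparisons and 1 added. SEs were derived from the log2 fold change and its F statistic. The common biological coefficient of variation was 1.34, so small changes in 5 against 5 libraries can be missed. A floor is 3 counts of a library's total and covers counting error only, because amplified reads that carry no molecular identifier may stem from 1 molecule. The steps were tested on simulated counts.

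Alternatives were DESeq2 size factors, DESeq2 1.42.0, limma-voom with sample weights (limma 3.58.1), no filter, only the groups compared, a replicate block, a block for sets of sheet numbers and each library left out. The last kept the dispersion trend of the full fit. Each pupal stage was also left out of the contrasts over stages, after the stage means had been seen. Exon lengths and overlaps came from Ensembl release 115, in which all 32 members were found. The members, lists and comparisons were chosen with earlier results of these data known. Library values and tests are given for members called in at least 1 of the 8 comparisons, for dpr12 and DIP-delta, and for members whose libraries do not overlap between groups. The rest are given by their range. The trend of dpr6, the sheet sets of dpr9 and dpr12 and the level of dpr18 were singled out after their values were seen.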

Additional observations from a re-analysis of the deposited data

Results flagged for a closer look

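In the 16 members described by library, 24 of 171 groups tested had 1 library far from the others of its group. The cut-offs flag about 1 group in 20 when values have a normal spread. Levels in CPM need not have one, so 24 of 171 is not compared with that rate. Groups with several libraries at 0 are flagged readily. In the alpha-beta neurons these were, in CPM, DIP-beta in 24 h replicate 6 (95.1), DIP-delta and DIP-eta in 18 h replicate 5 (46.7 and 23.8), DIP-epsilon in 24 h replicate 5 (34) and 27 h replicate 3 (12.4), DIP-eta in adult replicate 3 (98.8) and DIP-theta in 21 h replicate 5 (26.5). They also included dpr12 in 30 h replicate 4 (578), dpr20 in 27 h replicate 5 (72.6), and dpr4 in 24 h replicate 1 (27.1) and adult replicate 1 (51.8). In gamma neurons they were DIP-beta in 24 h replicate 1 (30.0), DIP-epsilon in 24 h replicate 5 (12.8) and adult replicate 1 (11.5), DIP-eta in 24 h replicate 2 (7.12) and 30 h replicate 1 (1.13), and DIP-kappa in 24 h replicate 5 (57.8). The others were DIP-lambda in 21 h replicate 2 (28.5), DIP-theta in 18 h replicate 5 (27.8), 21 h replicate 3 (3.54) and 24 h replicate 3 (14.5), dpr12 in 18 h replicate 3 (472) and adult replicate 4 (919), and dpr14 in 24 h replicate 3 (224). In all 24 cases the library was the highest of its group.

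The difference between the cell types changed from pupa to adult for dpr6 (-1.93 on the log2 scale) and DIP-theta (fitted value -11.2, which depends on the adult gamma libraries being at 0), by an edgeR test of the change itself in the comparison added after the values had been seen. The planned interaction, which sets adults against 30 h alone, called neither (edgeR adjusted p 0.227 for dpr6 and 0.0618 for DIP-theta).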

How the results depend on the processing

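Counts of members called in other fits are given without the share of all genes in those fits, and are not compared with it. In the pupal comparison of cell types (6 called), limma-voom called 13, and leaving 18, 21 or 30 h out of the contrast left 3, 2 and 3. In the adult comparison (4 called), DESeq2, the replicate block and the sheet set block each called 9, and the fit of the adult groups alone called 2. From 30 h to adult in alpha-beta neurons (3 called), DESeq2 and the groups alone called 6 each, limma-voom 11 and both blocks 5. In gamma neurons (5 called), limma-voom called 2 and the groups alone 1, namely dpr9. For the interaction (0 called), DESeq2 called 3 and the replicate block 1, DIP-theta (adjusted p 0.0363). For the alpha-beta trend (0 called), DESeq2 called 2, and limma-voom, both blocks and the groups alone 1 each, namely dpr12. For the gamma trend (0 called) DESeq2 called 4, and limma-voom and the groups alone 1 each. For the difference of trends (0 called) DESeq2 called 2. Over the fits without 1 library, the counts ran from 4 to 8, 2 to 5, 1 to 4, 4 to 6, 0 to 0, 0 to 1, 0 to 0 and 0 to 0 in these comparisons, in order. In the added comparison (2 called) DESeq2 called 6, and 1 to 2 were called without 1 library. DIP-delta turned from 0.51 to -0.43 with limma-voom in gamma neurons from 30 h to adult and ran from -0.10 (without gamma adult replicate 5) to 1.40 over the fits without 1 library, and its uncalled alpha-beta trend ran from -0.47 to 0.61 without 1 library. DIP-lambda was not called with limma-voom in either adult comparison. The cause of these differences was not tested.

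Same-numbered libraries did not all deviate together: their correlation was under 0.1 in at least 1 pair of every comparison (for adult gamma with adult alpha-beta, -0.0214 to 0.0818). On average they were more alike than libraries with other numbers in every pair of groups. The mean correlations ran from 0.038 to 0.18, against -0.0371 to -0.00784 for other numbers. The numbers were not taken to pair samples in the planned fit, and the replicate block was run as an alternative. With the replicate block the pupal count was 7, DIP-theta being gained (adjusted p 0.0377), and the gamma adult count 5. That block also called dpr4, dpr10, dpr12, dpr20 and DIP-kappa in adults, dpr17 and dpr20 (0.0391) from 30 h to adult in alpha-beta neurons, and the alpha-beta trend of dpr12 (0.00737). With DESeq2 size factors in edgeR the counts of called members were the same. The median of all genes moved by over 0.1 with limma-voom for the adult change in alpha-beta neurons, to -0.47 from -0.16. The median number of partner pairs was 23 in pupal alpha-beta, 12 in pupal gamma, 24 in adult alpha-beta and 9 in adult gamma libraries at 1 CPM, and 11, 7, 18 and 6 at 10 CPM without TMM. A level under 0.11 to 0.681 CPM could not be told from 0 at these depths.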
